A study of Mus musculus with 35 samples.

Results

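Liver metastases of a *Smad4*-restorable mouse pancreatic cancer were profiled at 7 and at 14 days after doxycycline (Dox) withdrawal, and the 6 RNA-seq libraries labelled *Smad4* on were chosen here by their labels, 3 of each day, out of 35 libraries in the series. The cells were KC-shSmad4 pancreatic ductal adenocarcinoma (PDAC) cells, which carry a *Ptf1a*-driven Cre, a *Rosa26* allele for rtTA3 and the red reporter mKate2, and in *Col1a1* a Dox-inducible hairpin against *Smad4* linked to GFP. They also carried firefly luciferase, and all hosts were female athymic nude (*Foxn1*nu) mice, which lack mature T cells and were young when used. Cells were injected into the spleen, which was then removed, the hosts ate Dox chow so that the hairpin was expressed, and regular chow replaced it 5 weeks after injection. Each library came from mKate2+ tumor cells sorted out of 1 liver, so that a gene's level is its share of the RNA of the sorted cells, and fewer cells of one kind cannot be told apart from less RNA per cell. As labelled, the comparison asks what differed in the metastases between the first and the second week without Dox.

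SMAD4 is the common partner of the receptor-activated SMAD proteins, and with them it carries TGF-beta and BMP signals to the genes. It is a tumor suppressor that is often lost in PDAC. PDAC cells and their precursor lesions can also express genes of the stomach lining, among them gel-forming mucins, trefoil factors and gastrokines, which form the mucus layer of a normal stomach.

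*Smad4* mRNA did not follow the label. Over the series its counts-per-million value (CPM, scaled by TMM over all 35 libraries) was 14.6 to 22.2 in the 17 libraries labelled on and 68.3 to 147 CPM in the 18 labelled off, so the libraries described here hold the lower level, the reverse of what their label says. Whether the labels on and off were exchanged was not tested, the state of the hairpin and of Dox in these libraries is known from the labels alone, and the libraries are called by their label throughout. The days overlapped: the 3 day-7 libraries had 15.1, 14.3 and 15.8 CPM and the 3 day-14 libraries 15.2, 15.4 and 14.9 CPM (scaled over the 6 libraries, as are the CPM values below unless stated). The log2 fold change of day 14 over day 7 was 0.01 with a standard error (SE) of 0.15.

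The 6 libraries held 18491168 to 38182315 counts, which puts 3 counts at 0.0786 to 0.162 CPM. Mouse 3 of each day stood apart: these libraries alone had *mt-Co3* counts, 1264 on day 7 and 862 on day 14, and the first principal component, with 42.7% of the variance, set both at 47.7 and 44.1 against -35 to -13 for the other 4. Day and this technical set are balanced, so each difference was also taken within mice 1 and 2 and within mouse 3. Correlations of log2 CPM across genes ranged from 0.97 to 0.994 between libraries of the same set and from 0.948 to 0.969 between sets, while those between days (0.948 to 0.983) overlapped with those within a day (0.952 to 0.994). Genes are not independent replicates, and the values describe these libraries. Of the 15199 genes tested, 50.5% had day differences of the same sign in both sets.

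One gene passed the test. By edgeR's quasi-likelihood test, at a Benjamini-Hochberg adjusted P under 0.05 and more than a 2-fold difference, 0 genes were higher on day 14 (0% of those tested) and 1 was lower (0.00658%), *Muc5ac*. At an unadjusted P under 0.05 the counts were 210 higher (1.38%) and 348 lower (2.29%), and at the same fold and adjusted thresholds DESeq2 called 11 higher (0.053% of 20771 genes) and 40 lower (0.193%). The groups did not overlap in 556 genes that were higher (3.66%) and 736 that were lower (4.84%). Over all 15199 genes tested, 8081 log2 fold changes were positive and 7118 negative, the background for the signs in the lists below. All 51 genes that DESeq2 called, from these same libraries, had groups that did not overlap. Groups that do not overlap must have the same sign within both technical sets, so that sign is no separate check of the calls. In the following, "called by DESeq2" refers to those 51 genes, and a gene described without a call has its values only.

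*Muc5ac*, the main gel-forming mucin of the stomach surface, fell. It had 16.0, 13.6 and 11.5 CPM on day 7 and 0.704, 0.784 and 0.503 CPM on day 14, from 636, 428 and 301 counts and from 25, 22 and 9 counts. Every day-14 library was below every day-7 library by far more than the spread within a day (13.7 ± 2.27 against 0.664 ± 0.145 CPM, mean ± SD, n = 3). It fell by 4.34 on the log2 scale (SE 0.30, edgeR adjusted P = 0.0277, DESeq2 adjusted P = 3.86e-33). The log2 differences within mice 1 and 2 (-3.62) and within mouse 3 (-3.58), taken with a pseudocount of 0.5 CPM, were alike. The edgeR call does not hold with the mouse number as a block (log2 -4.36, edgeR adjusted P = 0.119) or without any 1 of the 6 libraries (edgeR adjusted P between 0.0934 without day-14 mouse 3 and 0.52 without day-7 mouse 2, with log2 values between -4.48 and -4.19). The gene lies on chromosome 7 at 141788972-141819231 (GRCm38, plus strand in the deposited annotation).

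**Figure D1:**
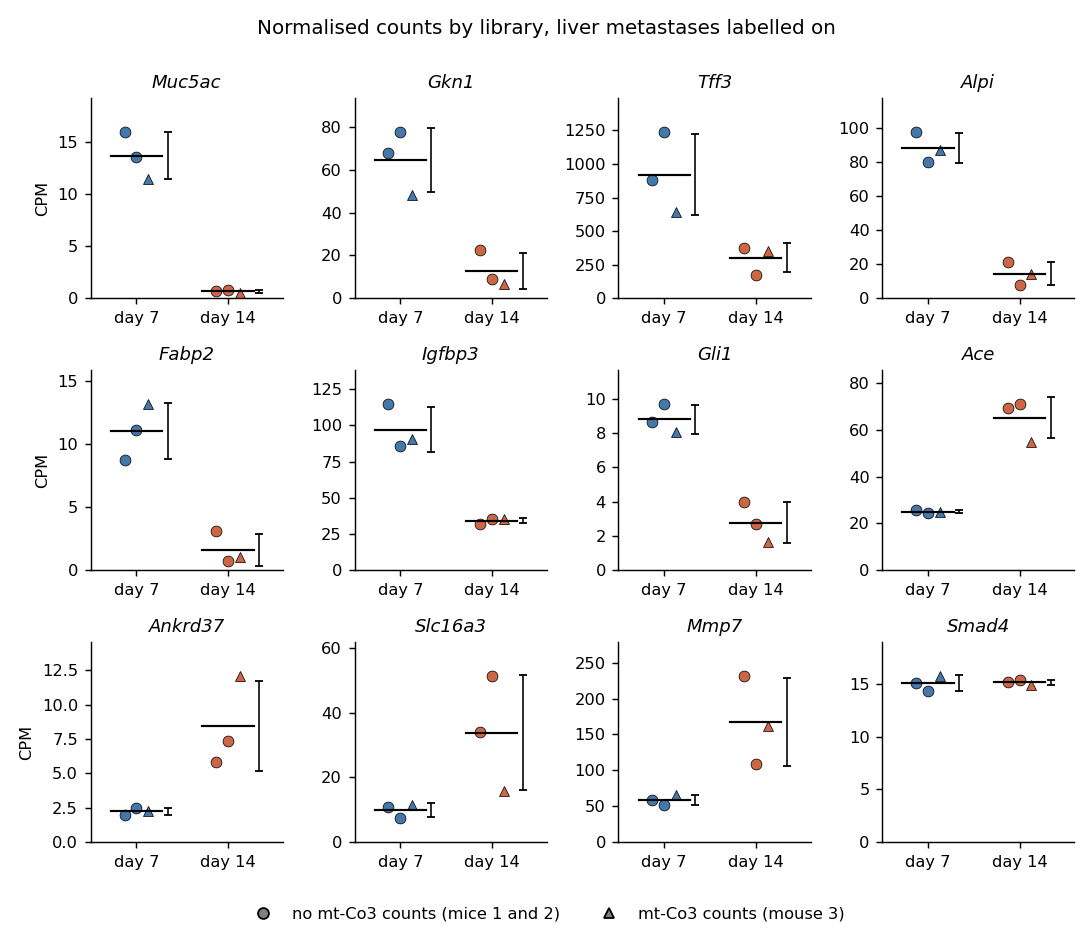
CPM of 12 genes in each of the 6 libraries (vertical axes from 0, horizontal axis the day). Points are libraries, circles mice 1 and 2, triangles mouse 3, the line is the mean of 3 and the bar beside it 1 SD on each side. The 3 day-14 libraries sit below all day-7 libraries for *Muc5ac* (0.503 to 0.784 against 11.5 to 16.0 CPM), above them for *Ace* (55.1 to 71.3 against 24.6 to 25.7 CPM), and among them for *Smad4*.

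Other genes of the stomach lining were also lower on day 14. Of the 19 genes of a list of gastric genes and mucins, 16 could be tested, 14 of these had a negative log2 fold change and the median was -0.75, against 0.02 for all genes tested. The groups did not overlap in 6 of the 16 genes, all lower, against 4.84% of all genes tested. The only call by edgeR was *Muc5ac*, and DESeq2 called *Muc5ac*, *Gkn1* and *Tff3*. The list's median was -0.64 within mice 1 and 2 and -0.84 within mouse 3. *Gkn1*, which encodes gastrokine 1 of the gastric surface, had 67.7, 77.7 and 48.3 CPM on day 7 and 22.4, 9.19 and 6.70 CPM on day 14. Its log2 fold change was -2.33 (SE 0.46, edgeR adjusted P = 0.998, DESeq2 adjusted P = 0.000504). *Tff3*, a trefoil peptide secreted with mucins, had 877, 1240 and 642 CPM against 372, 176 and 353 CPM (log2 -1.61, SE 0.37, DESeq2 adjusted P = 0.00907). *Gkn2*, the partner gene of *Gkn1* and like *Tff3* singled out after its values were seen, went from 24.2 to 28.7 CPM on day 7 to 12.3, 1.39 and 0.0558 CPM on day 14, the last below the level of 3 counts. Other abundant members were not called: *Tff2*, the trefoil peptide of gastric glands, had 2270, 3380 and 1010 CPM against 1850, 785 and 1230 CPM, and *Muc1*, a membrane mucin, 1190, 1350 and 643 CPM against 1120, 784 and 800 CPM, and in both the groups overlapped. The transcription factors that set foregut and pancreatic identity had a median of -0.12 over 13 genes tested, with 0 called by either tool. Among them *Foxa3* had 5.49 to 8.81 CPM on day 7 and 4.02 to 4.56 CPM on day 14, and *Hnf4a*, a regulator of gut and liver epithelium, 285 to 347 against 243 to 332 CPM.

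Several of the genes with the lowest P are known from the absorptive lining of the intestine, for which no list was tested. *Alpi*, an intestinal alkaline phosphatase of the brush border, had 98, 80.2 and 87.2 CPM on day 7 and 21.2, 7.77 and 14.0 CPM on day 14. Its log2 fold change was -2.62 (SE 0.35, edgeR adjusted P = 0.62, DESeq2 adjusted P = 3.33e-09), with -2.73 within mice 1 and 2 and -2.60 within mouse 3. *Fabp2*, the intestinal fatty acid binding protein, had 8.76, 11.1 and 13.2 CPM against 3.07, 0.713 and 1.06 CPM (log2 -2.75, SE 0.57, DESeq2 adjusted P = 0.00033). *Fabp1*, the liver and intestinal form, had 8.28, 7.46 and 8.34 CPM against 2.59, 1.21 and 2.07 CPM (log2 -2.03, SE 0.34, DESeq2 adjusted P = 1.79e-05). The groups of all 3 genes were apart, which the rule for choosing them required. *Prap1*, a secreted protein of gut epithelium, went from 168 to 180 CPM down to 58.1 to 104 CPM, and the flavin monooxygenase gene *Fmo5* from 22.3 to 32.0 CPM down to 7.41 to 11.7 CPM, both called by DESeq2. Further genes of this kind among the DESeq2 calls, picked out after the calls were seen, were *Lypd8* (1050, 1100 and 579 against 383, 129 and 286 CPM), which encodes a protein of the colon surface that binds flagellated bacteria, *Akp3* (log2 -3.10), *Apoa4* (-2.41), *Creb3l3* (-1.73), *Aadac* (-1.97) and *Cyp2c65* (-1.29). *Akp3* is a neighbour of *Alpi* and closely related to it, so reads may have been split between them.

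Several of these genes are also expressed by hepatocytes. The defining hepatocyte gene *Alb* was at 2.55 to 13.7 CPM on day 7 and 3.71 to 16.8 CPM on day 14, *Cyp3a11* and *Tat* at or below 0.335 CPM in all 6 libraries. The 18 hepatocyte markers summed to 1010 to 1030 CPM on day 7 and 687 to 766 CPM on day 14, most of it *Apob* (867 to 937 and 630 to 655 CPM), an apolipoprotein gene that enterocytes express as well. *Apoa1* had 19.9, 27.5 and 110 CPM against 14.6, 5.81 and 8.77 CPM, and was called lower by DESeq2 (log2 -2.43, DESeq2 adjusted P = 0.0332). The list had 3 genes with groups apart, all lower, of 15 tested (against 4.84% of all genes tested), and a median of 0.20.

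The promoters of *Alpi* and *Fabp2* are printed because DESeq2 called both genes lower and *Hnf4a*, whose protein drives enterocyte genes, was expressed. Both are RefSeq windows of GRCm38.p6, from 250 bases before to 50 bases after the start site, given 5′ to 3′ on the gene's strand, and capitals mark CAAAGT, the core of the HNF4 motif, searched on both strands. *Alpi* is at chr1:87101557-87101856 (minus strand), with a match that begins 19 bases before the start site, and *Fabp2* at chr3:122894822-122895121 (plus strand), with a match on the opposite strand that begins 134 bases before it.
Alpi: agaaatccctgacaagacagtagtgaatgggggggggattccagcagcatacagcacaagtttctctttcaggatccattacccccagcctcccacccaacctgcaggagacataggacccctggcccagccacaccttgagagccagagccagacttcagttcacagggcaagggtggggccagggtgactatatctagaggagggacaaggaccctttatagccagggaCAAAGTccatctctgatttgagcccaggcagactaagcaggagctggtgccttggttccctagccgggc
Fabp2: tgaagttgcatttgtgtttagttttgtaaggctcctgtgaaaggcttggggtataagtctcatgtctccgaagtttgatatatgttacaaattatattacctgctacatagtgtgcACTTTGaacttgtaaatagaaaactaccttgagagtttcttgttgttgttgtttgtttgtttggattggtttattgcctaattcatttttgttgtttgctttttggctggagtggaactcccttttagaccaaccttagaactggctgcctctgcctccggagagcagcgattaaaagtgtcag
A match was found in 14.4% of all 32851 promoters, in 9 of the 33 promoters (27.3%) matched to 29 of the 40 genes that DESeq2 called lower, and in 6 of the 11 promoters (54.5%) matched to 9 of the 11 genes it called higher. The letters are a description of these windows and no measure of binding.

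Outside the gut genes, several genes known from mesenchymal and smooth muscle cells had lower values on day 14. They were picked by their low P and not from a list, except *Rgs5*. That gene is a member of the marker list of fibroblasts and stellate cells and is counted in its sums below. *Igfbp3*, a secreted binding protein for insulin-like growth factors, had 115, 86.0 and 90.3 CPM on day 7 and 32.1, 35.3 and 35.5 CPM on day 14, a tight pair of groups (log2 -1.50, SE 0.15, edgeR adjusted P = 0.137, DESeq2 adjusted P = 2.68e-09). *Thy1*, a surface glycoprotein, had 46.7, 45.3 and 22.8 CPM against 15.2, 6.88 and 6.70 CPM. *Gucy1a3*, a subunit of the nitric oxide receptor, *Mfap5*, a microfibril protein, and *Spon1*, a matrix adhesion protein, had log2 fold changes of -2.46, -1.71 and -1.36. *Rgs5*, a marker of pericytes, was at 64.2, 32.9 and 139 CPM against 16.8, 2.71 and 4.80 CPM (log2 -3.26, SE 0.82). All 6 were called lower by DESeq2. The markers of fibroblasts and stellate cells did not follow the same order: the 14 genes summed to 1120, 1500 and 662 CPM on day 7 and to 390, 607 and 3530 CPM on day 14, with *Col1a1* at 892 CPM in day-14 mouse 3 against 70.4 to 278 CPM elsewhere. Their median log2 difference was -1.60 within mice 1 and 2 and 2.50 within mouse 3. The part of such cells in the 6 genes was not tested.

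**Figure D2:**
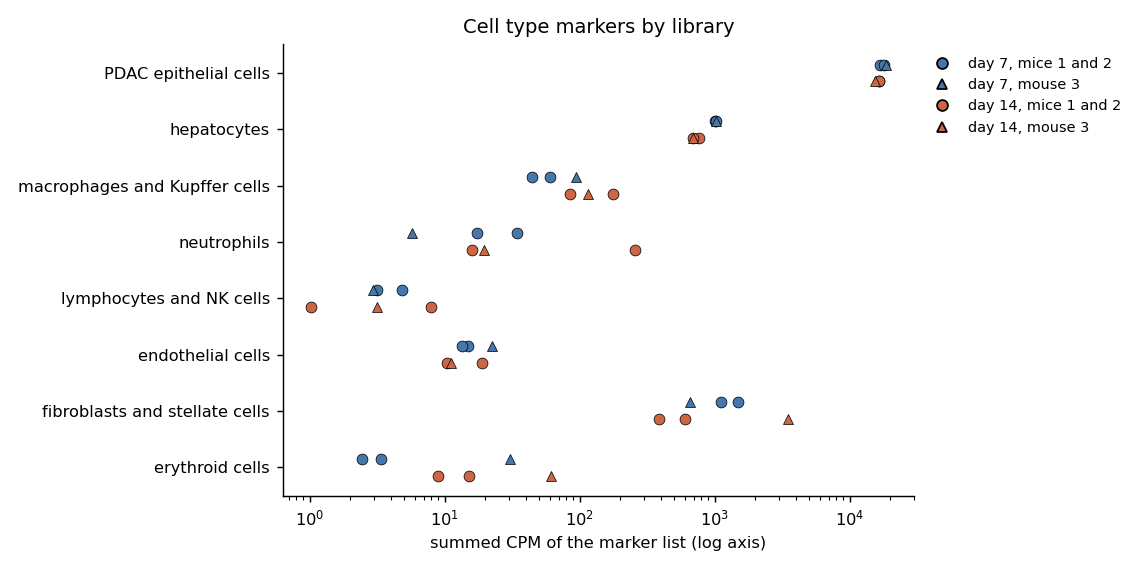
Summed CPM of each cell type's marker list (horizontal log axis) in the 6 libraries, day 7 in blue and day 14 in orange, triangles for mouse 3. Markers of PDAC epithelium lie between 15500 and 18500 CPM in all libraries, those of fibroblasts spread from 390 to 3530 CPM, and those of neutrophils reach 256 CPM in day-14 mouse 1 against at most 34.4 CPM in the others.

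The sort can be read from the same lists. Markers of PDAC epithelium, among them the keratin gene *Krt19* (3320, 3950 and 4260 against 3140, 3030 and 3530 CPM), summed to 16900 to 18500 CPM on day 7 and 15500 to 16500 CPM on day 14. Endothelial markers summed to 10.4 to 22.3 CPM and lymphocyte and NK cell markers to 1.03 to 7.97 CPM over both days, and those of macrophages and Kupffer cells to 44.8 to 94.0 against 85.4 to 176 CPM. Erythroid markers summed to 2.45 to 30.7 against 8.96 to 61.0 CPM.

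The genes of this paragraph were chosen among those with higher values on day 14 and groups apart, of which *Ace* had the lowest P. It encodes angiotensin-converting enzyme, and had 25.7, 24.6 and 24.7 CPM on day 7 and 69.4, 71.3 and 55.1 CPM on day 14, so that the groups stood well apart (log2 1.38, SE 0.14, edgeR adjusted P = 0.137, DESeq2 adjusted P = 3.01e-08). *Mmp7*, the epithelial matrix metalloproteinase matrilysin, had 58.4, 51.4 and 65.9 CPM against 232, 109 and 162 CPM (log2 1.52, SE 0.28, DESeq2 adjusted P = 0.00121). *Neurl1a*, an E3 ubiquitin ligase gene, and *Scrn1* had log2 fold changes of 1.27 and 1.03, and *Sp5*, a target gene of Wnt signalling, 1.56 from 1.12 to 1.69 CPM up to 3.28 to 4.24 CPM, all called by DESeq2. A pair of genes of vitamin A metabolism were apart without a call: *Stra6*, the receptor for retinol uptake, with 133, 86.6 and 98.4 CPM against 308, 203 and 176 CPM (log2 1.11, DESeq2 adjusted P = 0.0712), and *Aldh1a3*, which makes retinoic acid, with 115, 84.4 and 64.1 CPM against 195, 219 and 150 CPM (log2 1.10, DESeq2 adjusted P = 0.0672).

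*Ltf*, *Arg1* and *Emb*, which myeloid cells can also express, were called higher by DESeq2. *Ltf*, the gene of lactoferrin, which both epithelia and neutrophils make, had 86.4, 60.4 and 74.6 CPM on day 7 and 880, 170 and 476 CPM on day 14 (log2 2.79, SE 0.56, DESeq2 adjusted P = 6.79e-05). *Arg1*, arginase 1 of hepatocytes and of some macrophages, had 0.704, 1.12 and 2.02 CPM against 7.66, 6.13 and 5.64 CPM (log2 2.35, SE 0.44, DESeq2 adjusted P = 0.00014), and *Emb*, a companion protein of monocarboxylate transporters, 0.730, 0.797 and 0.876 CPM against 5.86, 1.75 and 2.90 CPM. The 8 neutrophil markers summed to 34.4, 17.3 and 5.72 CPM on day 7 and 256, 15.9 and 19.5 CPM on day 14, with *S100a9* at 141 CPM in day-14 mouse 1 against 2.67 to 16.7 CPM elsewhere. *Ltf*, *Arg1* and *Emb* were highest in that library as well, as was the sum of the macrophage and Kupffer cell markers (176 CPM). Neither tool called a listed marker of neutrophils or of macrophages. DESeq2 gave no adjusted P for the neutrophil marker *Csf3r*, so it could not call that gene. *Ms4a6d*, which is on neither list, was also called higher by DESeq2 (log2 2.08, SE 0.37, DESeq2 adjusted P = 0.0141). The part of neutrophils and macrophages in the called genes was not tested.

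Genes of the hypoxia response and of glycolysis, which turns glucose into lactate and is raised by hypoxia-inducible factors, had higher values on day 14. The list of 31 genes matched 32 tested rows, since *Aldoa* has a second one. Of these, 29 were positive and the median log2 fold change was 0.48. The groups did not overlap in 8, all higher (against 3.66% of all genes tested), and DESeq2 called 2. Neither tool called any member lower, and edgeR called 0. *Ankrd37*, a target of hypoxia-inducible factor, had 1.99, 2.45 and 2.25 CPM on day 7 and 5.86, 7.34 and 12.1 CPM on day 14 (log2 1.92, SE 0.34, DESeq2 adjusted P = 0.000234). *Slc16a3*, which exports lactate, had 11, 7.59 and 11.5 CPM against 34.2, 51.5 and 15.9 CPM (log2 1.75, SE 0.42, DESeq2 adjusted P = 0.0241). Its log2 difference was 2.14 within mice 1 and 2 and 0.44 within mouse 3. The abundant glycolysis genes differed by less: *Tpi1* had 482, 469 and 536 against 652, 859 and 748 CPM, *Ldha*, lactate dehydrogenase A, 709, 667 and 701 against 769, 1140 and 1110 CPM, and *Pfkp* 84.3 to 96.8 against 113 to 165 CPM. *Ero1l*, an oxidase of the endoplasmic reticulum, had 31.0 to 39.1 against 42.3 to 96.6 CPM. These 4 were named after their values were seen, while *Pkm* (884 to 1330 against 1190 to 1790 CPM) and *Gapdh* (733 to 1500 against 924 to 2250 CPM), the most abundant members, had groups that overlapped. The list's median was 0.53 within mice 1 and 2 and 0.16 within mouse 3.

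The promoters of *Ankrd37* and *Slc16a3*, the 2 called members, are shown for the core of the hypoxia response element. They are RefSeq windows of the same kind and build, and capitals mark ACGTG and GCGTG, searched on both strands. *Ankrd37*, at chr8:45999801-46000100 (minus strand), has 4 matches, of which the one that begins 155 bases before the start site on the opposite strand overlaps the next at 152 bases. *Slc16a3*, at chr11:120948817-120949116 (plus strand), has 2, which begin 27 and 14 bases before it.
Ankrd37: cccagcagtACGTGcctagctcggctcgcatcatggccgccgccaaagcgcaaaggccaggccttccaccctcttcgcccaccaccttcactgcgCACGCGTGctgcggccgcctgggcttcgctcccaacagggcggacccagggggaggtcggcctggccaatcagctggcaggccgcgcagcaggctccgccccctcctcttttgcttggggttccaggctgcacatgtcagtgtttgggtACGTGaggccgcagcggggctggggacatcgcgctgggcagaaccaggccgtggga
Slc16a3: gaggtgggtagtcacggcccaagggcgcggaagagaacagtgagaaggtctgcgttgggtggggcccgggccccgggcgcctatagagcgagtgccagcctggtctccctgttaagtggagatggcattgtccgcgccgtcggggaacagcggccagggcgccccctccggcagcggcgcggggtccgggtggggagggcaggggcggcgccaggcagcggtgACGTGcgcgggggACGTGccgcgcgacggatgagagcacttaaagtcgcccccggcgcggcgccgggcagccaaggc
The core was found in 43.8% of all promoters and in 33 of the 42 promoters (78.6%) matched to 29 of the 31 list genes. The median GC content of those 42 was 62.2%, against 52.7% for all promoters, and its part in the share was not tested.

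The pathways that run through SMAD4 showed no called gene. The 7 SMAD genes tested had a median log2 fold change of -0.01 and a range from -0.33 to 0.11. *Smad7*, the feedback inhibitor of TGF-beta receptors, had the lowest of these, with 75.2 to 86.7 CPM on day 7 and 53.4 to 74.0 CPM on day 14. TGF-beta ligands and receptors had a median of -0.02 over 26 genes, with *Tgfb1* at 59.8, 48.8 and 69.3 CPM against 82.5, 71.4 and 70.1 CPM, and genes of the TGF-beta response had a median of -0.12 over 16 genes. In that last list *Cyr61*, a matricellular protein also driven by YAP, had 1020, 877 and 990 CPM against 695, 400 and 481 CPM (log2 -0.87, SE 0.24, edgeR adjusted P = 0.998), and *Id1*, a BMP target, 115 to 172 against 63.7 to 146 CPM. *Cdkn1c*, the gene of the cell cycle inhibitor p57, had 1.79 to 2.02 CPM against 1.13 to 3.03 CPM. Among the study's fibrogenic genes, log2 fold changes were -0.59 for *Il11*, -0.06 for *Has2*, 0.35 for *Col6a1*, 0.25 for *Itga5*, -0.26 for *Ccbe1* and 0.83 for *Wisp1*, with SEs of 0.29 to 0.97. The groups overlapped in all 7 genes tested of that list, and their median was -0.50 within mice 1 and 2 and 1.19 within mouse 3. Further genes that the study follows were as close: *Klf4* (-0.05), *Runx1* (-0.21), *Slc29a3* (0.08), *Atp7b* (-0.70) and *Mmd* (0.63, with groups of 6.38 to 8.73 and 10.5 to 11.8 CPM that did not overlap) all had an edgeR adjusted P of 0.998.

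Of the Hedgehog pathway, DESeq2 called the target gene *Gli1* lower and no other member, and edgeR called 0. Hedgehog ligands bind PTCH receptors, which frees SMO to activate the GLI transcription factors, and *Gli1* is itself a target gene. *Gli1* had 8.63, 9.72 and 8.08 CPM on day 7 and 4.00, 2.71 and 1.62 CPM on day 14, and was called by DESeq2 (log2 -1.65, SE 0.36, DESeq2 adjusted P = 0.0096). The ligand *Ihh* had 26.0, 34 and 25.3 CPM against 15.6, 13.8 and 20.5 CPM (log2 -0.77, SE 0.21, DESeq2 adjusted P = 0.353). The ligand *Shh*, named after its values were seen, had 11.9, 13.3 and 60.9 CPM against 9.35, 2.21 and 10.6 CPM, with the high value in mouse 3. *Gli2* had 43.2, 43.2 and 39.0 CPM against 36.7, 35.2 and 31.9 CPM (log2 -0.27, SE 0.12). The 14 genes of the pathway had a median of -0.20. Of these, 4 had groups apart and lower and 1 apart and higher, against 4.84% and 3.66% of all genes tested.

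The epithelial list had a median of -0.33, with 17 of 20 genes negative, and the mesenchymal list a median of 0.55, with 11 of 13 positive, and neither tool called a member. *Esrp2*, a splicing regulator of epithelia, had 62.0, 64.1 and 72.6 CPM against 52.5, 34.9 and 46.1 CPM, and *Ovol1*, an epithelial repressor, 47.2, 33.4 and 97.4 CPM against 41.0, 8.02 and 6.42 CPM. *Vim*, the intermediate filament vimentin, had 1060, 992 and 516 CPM against 1100, 2780 and 1190 CPM, and *Cdh2*, N-cadherin, 30.7, 30.6 and 19.4 CPM against 34.7, 50.2 and 35.7 CPM. *Axl*, a receptor tyrosine kinase, had 148, 115 and 120 CPM against 168, 192 and 156 CPM. Of the factors that drive the epithelial-mesenchymal transition, *Zeb1* had 13.0 to 26.0 against 24.5 to 30.0 CPM, *Twist2* 0.533 to 1.59 against 1.4 to 3.07 CPM, and *Snai2* 2.77 to 4.15 against 1.68 to 2.57 CPM. *Fn1*, fibronectin, overlapped between days at 341 to 785 and 634 to 1700 CPM.

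The immediate early genes, which growth factors and tissue dissociation both induce, had negative log2 fold changes in 20 of 20 cases, with a median of -0.57, and 0 were called. *Jun* had 1150, 1260 and 1730 CPM against 1040, 622 and 824 CPM, and *Fos* 2700, 3250 and 3440 CPM against 2920, 2190 and 2110 CPM. The median was -0.21 within mice 1 and 2 and -1.14 within mouse 3. The chaperone gene *Dnajb1* had 892, 838 and 1240 CPM against 661, 300 and 564 CPM in a heat shock list with a median of -0.34. Of 16 output and feedback genes of RAS-MAPK signalling, 2 had groups apart and lower and 2 apart and higher. The shares over all genes tested were 4.84% and 3.66%. The 2 lower ones were *Phlda1* (224 to 292 against 121 to 194 CPM) and *Spry1* (60.6 to 77.6 against 38.2 to 59.6 CPM), a feedback inhibitor. That list's median was -0.08. The EGF receptor ligand *Epgn* had 2.39, 1.18 and 2.51 CPM against 1.13, 0.392 and 0.112 CPM, and *Areg* 381 to 473 against 88.0 to 410 CPM.

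In the unfolded protein response list the median was 0.24, with 6 of 18 genes apart and higher, against 3.66% of all genes tested. *Asns*, asparagine synthetase, had 55.2, 64.3 and 45.2 CPM against 68.6, 200 and 72.0 CPM, and *Trib3*, a pseudokinase of the same stress pathway, 5.46, 4.27 and 3.43 CPM against 5.47, 25.2 and 6.42 CPM, both highest in day-14 mouse 2. Interferon-stimulated genes had a median of -0.41, with 29 of 35 negative and 0 called by either tool. Their median was -0.53 within mice 1 and 2 but 0.04 within mouse 3. Of the 35, 0 were apart and lower and 1 was apart and higher, against 4.84% and 3.66% of all genes tested. *Mx2* had 3.28 to 8.32 against 1.46 to 3.44 CPM, and *Gbp2*, the member apart, 7.24 to 15.2 against 15.9 to 39.1 CPM.

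S-phase genes, which replicate DNA, had a median log2 fold change of 0.26, with 45 of 47 positive. Of the 47, 5 were apart and higher, against 3.66% of all genes tested. G2 and M phase genes had a median of -0.06, with 0 of 54 apart. *Mcm5*, a subunit of the replicative helicase, had 82.4, 68.2 and 71.7 CPM against 83.2, 108 and 93.6 CPM, and *Chaf1b*, a histone chaperone, 20.0, 19.7 and 13.4 CPM against 23.7, 27.3 and 23.2 CPM. The abundant *Mcm6* (85.0 to 119 against 107 to 190 CPM) and *Pcna* (97.7 to 140 against 113 to 161 CPM) overlapped, as did the mitotic genes *Kif20b* (13.3 to 25.7 against 11.9 to 17.6 CPM) and *Gtse1* (17.2 to 22.5 against 14.4 to 19.8 CPM). The S-phase median was 0.19 within mice 1 and 2 and 0.38 within mouse 3, whereas the G2 and M phase median was -0.34 and 0.55.

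**Figure D3:**
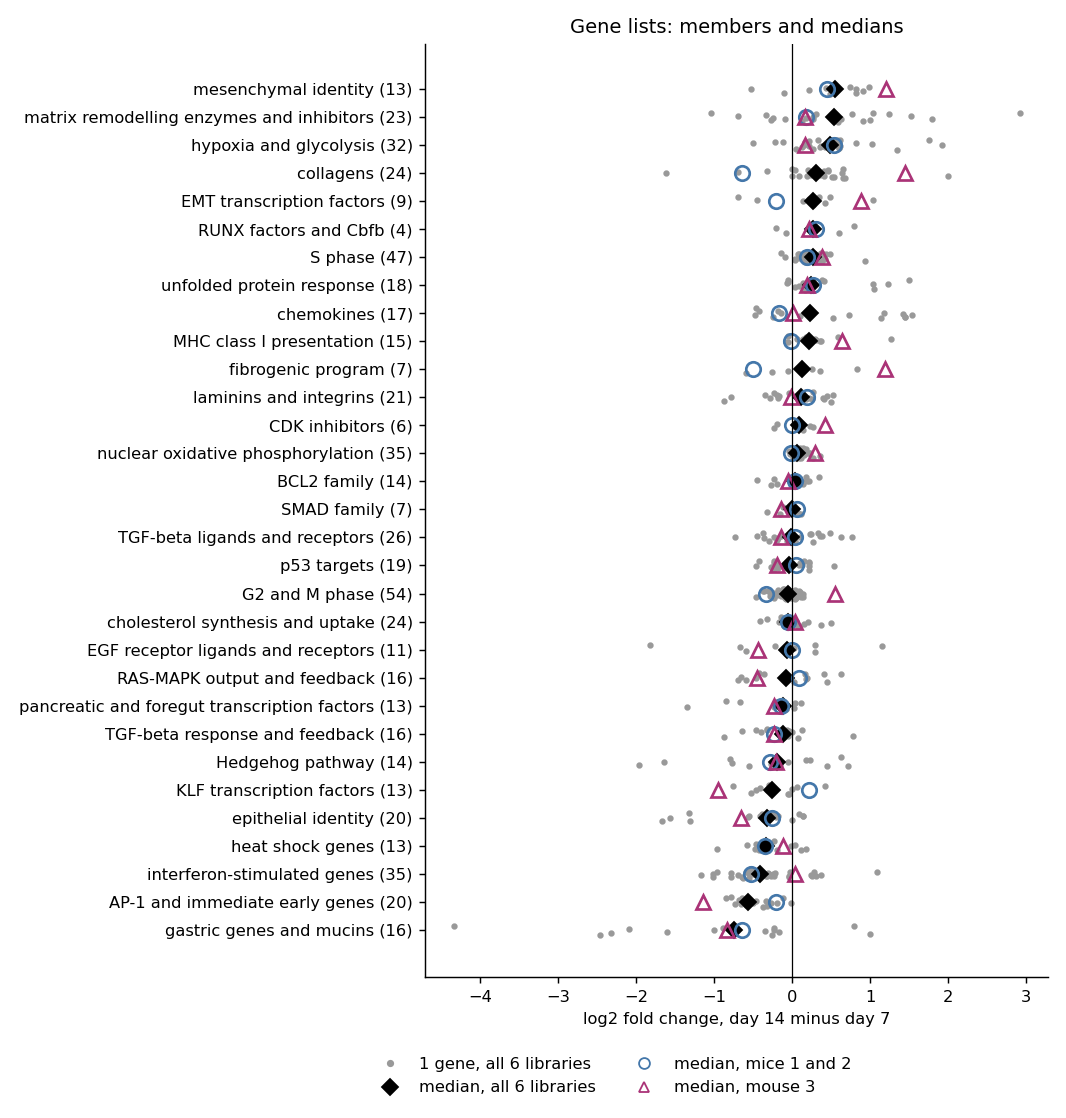
Log2 fold change of day 14 over day 7 for the members of 31 gene lists (number of tested rows in brackets). Grey points are genes, diamonds the list median over 6 libraries, blue circles the median within mice 1 and 2, and purple triangles that within mouse 3. Gastric genes and mucins have the lowest median (-0.75), hypoxia and glycolysis genes one of 0.48, and collagens, G2 and M phase genes and KLF factors have circles and triangles on opposite sides of 0.

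Several lists went in opposite directions in the technical sets. Collagens had a median of 0.31 over 24 genes, made of -0.64 within mice 1 and 2 and 1.45 within mouse 3. *Col3a1* had 384, 720 and 190 CPM on day 7 and 148, 385 and 1500 CPM on day 14, in the order of the fibroblast sums given above on day 14. *Col17a1*, an epithelial collagen of the basement membrane, had 174, 150 and 783 CPM against 215, 50.8 and 95.1 CPM, and *Col14a1* 40.9 to 67.9 against 66.4 to 111 CPM. The fibroblast marker *Pdgfra* had groups apart and higher, at 1.52 to 2.77 against 3.38 to 12.7 CPM. KLF transcription factors had medians of 0.21 and -0.95 in the sets, with *Klf10*, a TGF-beta-inducible member, at 306 to 317 against 161 to 304 CPM.

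**Figure D4:**
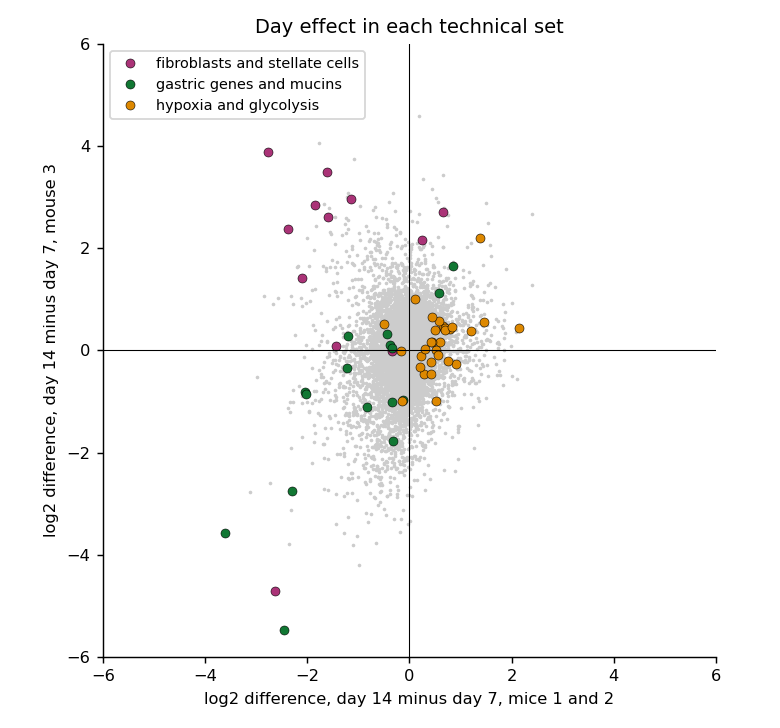
Each tested gene's log2 difference of day 14 minus day 7 within mice 1 and 2 (horizontal) and within mouse 3 (vertical), with a pseudocount of 0.5 CPM. Gastric genes (green) lie mostly at lower left, *Muc5ac* at -3.62 and -3.58, most fibroblast markers (purple) at upper left with medians of -1.60 and 2.50, and hypoxia genes (orange) mostly to the right of 0, with medians of 0.53 and 0.16.

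The day effect of these metastases was set against that of 3 other kinds of tumor by interaction tests. All of these use the same 6 libraries and so are not independent of each other. Pancreatic tumors came from injection into the pancreas and lung metastases from tail-vein injection, with Dox withdrawn 4 and 6 weeks after injection. Liver metastases labelled off came from injection into the spleen, and their label stands for continued Dox. Organ, route and weeks to withdrawal changed together, so their parts cannot be told apart. For each pair edgeR called 0 genes (0% of 16913, 16397 and 16092 tested) against liver metastases labelled off (2 libraries on day 7 and 3 on day 14), lung metastases labelled on (2 and 4) and pancreatic tumors labelled on (2 and 3). At an unadjusted P under 0.05 there were 1310, 994 and 1357 genes, and DESeq2 called 131 (33 higher, 0.206%, and 98 lower, 0.611%), 86 (14 higher, 0.0931%, and 72 lower, 0.479%) and 91 (22 higher, 0.152%, and 69 lower, 0.476%). Against liver labelled off the edgeR count was 679 without day-7 mouse 1 labelled off, which leaves a single, paired-end library in that group, and 1 without day-14 mouse 2 labelled off.

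*Muc5ac* did not pass these tests. Scaled over all 35 libraries, its level was 11.8 to 17.0 CPM on day 7 and 0.496 to 0.814 CPM on day 14 in the liver labelled on, 0.567 to 0.627 and 1.24 to 4.51 CPM in the liver labelled off, 3.06 to 5.11 and 1.83 to 14.8 CPM in the lungs, and 0 to 0.276 and 0.534 to 2.48 CPM in the pancreas. The day-14 level in the liver labelled on thus overlapped with the liver labelled off on day 7 and the pancreas on day 14. It lay above that of the pancreas on day 7. The day-7 level in the liver labelled on overlapped with that of the lungs on day 14. Its interaction log2 value against liver labelled off was -6.60 (SE 0.75, edgeR adjusted P = 0.101), against lungs -5.13 (SE 0.97, edgeR adjusted P = 0.532) and against pancreas -7.33 (SE 1.19, edgeR adjusted P = 0.211).

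Several genes of the gut lining, picked after their values were seen, also had their highest level on day 7 in the liver labelled on. On the same scale *Gkn1* had 49.8 to 82.4 CPM on day 7 in the liver labelled on, against at most 34.6 CPM in any library of the other 3 kinds, *Alpi* 85.0 to 104 CPM against at most 41.6 CPM, *Tff3* 662 to 1310 CPM against at most 237 CPM, and *Fabp2* 9.28 to 13.6 CPM against at most 3.02 CPM. Others overlapped with the other kinds, among them *Prap1*, with 174 to 191 CPM against up to 223 CPM in the lungs, and *Tff2*, with 1040 to 3580 CPM against up to 1430 CPM there. *Ihh* was at 26.0 to 36.1 CPM on day 7 in the liver labelled on, with at most 23.2 CPM in any library of the other 3 kinds. *Ace* showed the reverse order, with 25.4 to 27.2 CPM on day 7 in the liver labelled on and 83.9 to 522 CPM in the other kinds on both days. Its interaction against pancreas was 1.69 (SE 0.22, edgeR adjusted P = 0.126). *Slc16a3* was 8.04 to 11.9 CPM on day 7 in the liver labelled on and 9.53 to 78.7 CPM in the other kinds, so that the ranges overlapped. *Ltf* and *Mmp7* had day effects in the liver labelled off of 2.83 and 3.31 on the log2 scale, beside 2.79 and 1.52 in the liver labelled on.

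**Figure D5:**
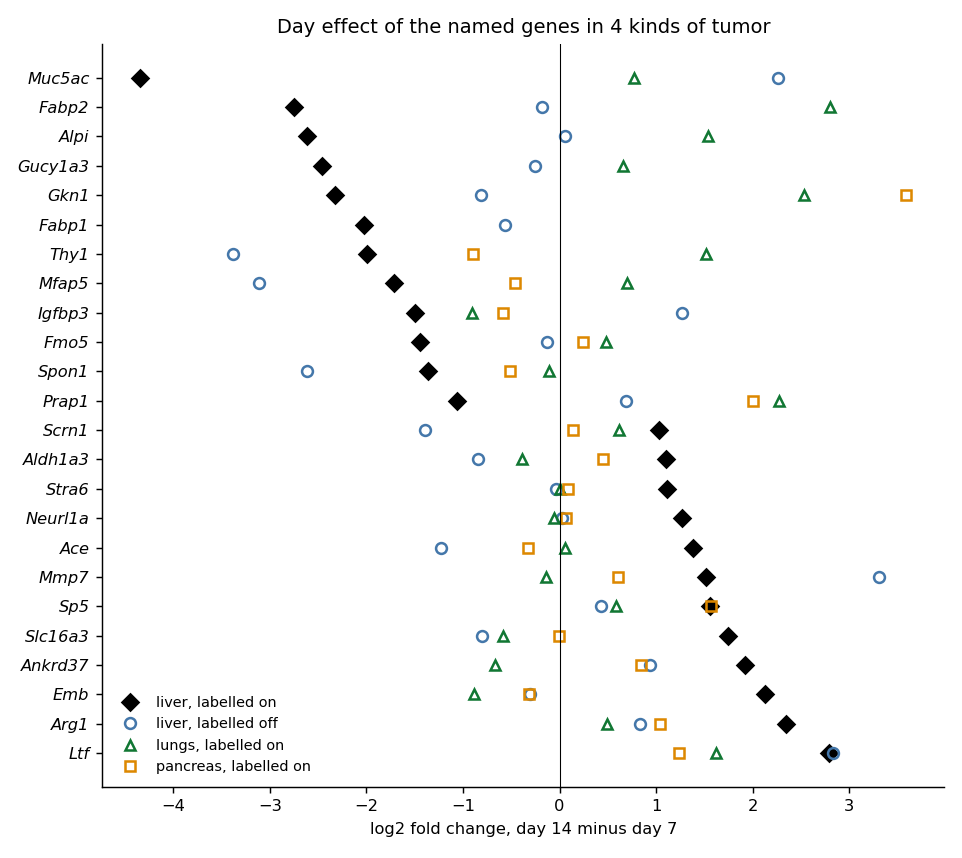
Log2 fold change of day 14 over day 7 for the 24 genes with the lowest P and groups apart in the liver labelled on (black diamonds), and in liver labelled off (blue circles), lungs labelled on (green triangles) and pancreas labelled on (orange squares), where the gene was tested. The black values were used to choose the genes. *Muc5ac* is at -4.34 in the liver labelled on, 2.26 in the liver labelled off and 0.77 in the lungs, and *Ltf* is positive in all 4.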

How the data were processed

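Poly(A) RNA of sorted mKate2+ cells was sequenced as 75-bp reads from stranded libraries. The authors trimmed reads with Trimmomatic 0.36, checked them with FastQC 0.11.5, aligned them with STAR 2.5.3a to GRCm38 (mm10) and deposited raw gene counts from featureCounts 1.6.3 for 53465 genes. The strand setting of the counting is not given in the sources used here, so overlapping antisense genes may share counts.

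Samples were grouped by their labels, 3 mice per day. Genes passing edgeR's filter (minimum count 10, total 15) were scaled by TMM and tested with edgeR 4.0.16 (R 4.3.3, quasi-likelihood, Benjamini-Hochberg adjustment, fold change over 2, biological coefficient of variation 0.342). Interactions used one model per pair of tumor kinds. DESeq2 1.42.0, the study's tool, and limma 3.58.1 were alternatives, beside other filters, scaling, covariates and each library left out. The test was checked on simulated data, where the only pass condition was set for large changes at a spread below that of these libraries. That condition does not measure how the test performs at the spread seen here. No pair of libraries was identical, and totals of 18491168 to 38182315 counts limit precision for genes of a few counts. Whether libraries labelled with the same mouse number share more than the number is not stated, but their deviations from the day means correlated at 0.244, 0.267 and 0.457, so the numbers were also fitted as a block. Day-7 mouse 1 correlated more with day-14 mouse 2 (0.319), and the mouse-3 pair shares its technical set.

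Named genes were the 12 lowest-P non-overlapping genes each way (fold over 2, mean CPM of at least 1), 2 by P and 2 by level per list, and the genes followed in the study, and not every one is printed, since some items are not reported here. The members, lists and rules were chosen with earlier results of these data known. Sequences came from RefSeq GRCm38.p6.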

Additional observations from a re-analysis of the deposited data

How the results depend on the processing

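The number of calls depended on the tool. Higher and lower genes on day 14 numbered 11 and 40 with DESeq2, 23 and 66 with DESeq2 and the *mt-Co3* set as a covariate, 1 and 1 with limma-voom, 1 and 2 with no filter, and 0 and 0 with at least 10 counts in every library, in the single fit of 12 groups, in the libraries without *mt-Co3* counts, with the replicate block and without any 1 library. DESeq2 size factors, the *mt-Co3* covariate in edgeR, and no fold threshold gave 0 and 1. The filter of at least 10 counts in every library left *Muc5ac* untested, since it had 9 counts in day-14 mouse 3. The fit blocked by mouse number called 0 genes (335 higher and 512 lower at an unadjusted P under 0.05), so the call of *Muc5ac* was lost (adjusted P = 0.119), and the block changed no other call. For *Muc5ac* the edgeR and limma adjusted P ranged from 0.000399 to 0.626 over the alternatives. The covariate with DESeq2 and the 4 libraries without *mt-Co3* counts were added after the data were seen.

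Interaction calls numbered 131 with DESeq2, 1 with no filter, 21 in the single fit and 0 to 679 (1 and 679 where not 0) with a library left out against liver labelled off, 86 with DESeq2 against lungs, and 91 with DESeq2 and 3 with no filter against pancreas. The *Smad4* difference was -0.01 in the single fit and -0.03 to 0.04 with a library left out (-0.03 to -0.01 where negative).

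Signs of uncalled genes turned as follows, on the log2 scale. With the block *Has2* was 0.09, *Wisp1* -0.05 and *Col1a1* -0.58. With the *mt-Co3* covariate *Has2* was 0.19 and *Col1a1* -0.58, and with DESeq2 and that covariate 0.23 and -0.57. With limma-voom *Col6a1* was -0.19, *Wisp1* -0.82, *Col3a1* -0.31 and *Col1a1* -0.93. In the libraries without *mt-Co3* counts *Col6a1* was -0.36, *Wisp1* -1.15, *Klf4* 0.29, *Runx1* 0.05, *Col3a1* -1.05 and *Col1a1* -1.86. With a library left out the ranges were -0.55 to 0.54 for *Has2* (0.26 to 0.54 where positive), -0.12 to 0.74 for *Col6a1*, -0.80 to 1.33 for *Wisp1*, -0.39 to 0.26 for *Klf4*, -0.69 to 1.21 for *Col3a1*, -1.57 to 1.14 for *Col1a1*, -0.02 to 0.58 for *Cdkn1c*, -1.09 to 0.41 for *Il11*, -0.64 to 0.15 for *Ccbe1*, -0.12 to 0.23 for *Slc29a3* and -0.14 to 3.26 for *S100a9*. The cause was not tested. Over the named genes and alternatives 1504 values kept direction and side of the threshold, 65 passed it, 9 lost it and 33 turned.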
